A study of Mus musculus with 16 samples.

Results

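The replication-dependent histone genes are the 67 protein-coding rows of the gene count table whose identifier carries a symbol beginning with Hist1h, Hist2h, Hist3h or Hist4 in the mouse annotation, out of 55385 genes in all. Of these, 65 had at least 1 count, 58 reached 1 CPM (the gene's counts scaled to the same library total) in at least 1 library, and 16 reached it in every library. Hist1h2aa and Hist2h3c1 had no count. The table holds 16 short-read RNA-seq libraries, 1 for each of 8 tissues (liver, kidney, spleen, lung, heart, muscle, brown adipose and white adipose) from mice that were fed and mice under fasting for 24 h. All mice were male C57BL/6, acquired at 12 weeks of age, and sampled at 10 am. Each library is 1 equal pool of 3 mice, so each combination of tissue and treatment has no replicate, and the 8 tissues of a treatment come from the same mice. Differences between fed and fasting within a tissue therefore compare 2 libraries, not the conditions, and have no replicate check.

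Histones are the proteins that DNA is wrapped around. Core nucleosomes contain H2A, H2B, H3 and H4, and linker histone H1 binds where DNA enters and leaves the core. The genes described here supply the bulk of new histone when DNA is copied, and their expression is known to be restricted largely to S phase in dividing cells. Unlike other mRNAs, most of their transcripts carry no poly(A) tail. A short conserved stem-loop near the 3′ end is bound by the stem-loop binding protein SLBP, and the transcript is cleaved just after it with the help of the U7 small nuclear RNP. Some of these genes also produce longer, polyadenylated transcripts, chiefly in cells that have stopped dividing. Other variants, such as H3.3 and H2A.Z, are encoded by separate genes outside the clusters and are made throughout the cell cycle.

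The members lie in 4 places in GRCm38. The large Hist1 cluster at chr13:21715763-23934851 holds 54 members, the Hist2 cluster at chr3:96219865-96270132 holds 10, Hist3 at chr11:58948920-58956830 holds 2, and Hist4h4 at chr6:136801553-136804415 stands alone. By family there are 6 H1 genes, 18 H2A, 18 H2B, 12 H3 and 13 H4. The histone 3′ stem-loop, a stem of 6 bases around a loop of 4, was searched for by its consensus on the sense strand of the GENCODE M21 transcripts. It was present in 44 of the 67 members (65.7%) and in 28 other protein-coding genes (0.128%). A match is a description of the letters and not a test of processing. The 6 forms found are shown because they set the H4 genes apart from the other families. Capitals mark the stem arms, and each form is named by a member that carries it.
Hist1h1c: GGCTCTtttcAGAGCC
Hist1h3e: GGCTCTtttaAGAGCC
Hist2h2ac: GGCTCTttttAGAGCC
Hist1h4d: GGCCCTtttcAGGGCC
Hist1h4i: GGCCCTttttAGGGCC
Hist1h4b: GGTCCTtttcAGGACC

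The form of Hist1h1c was the commonest, in 26 members of the H1, H2A, H2B and H3 families. The form of Hist1h4d was carried by 7 members, all of them H4 genes. Hist1h4i shared its form only with Hist2h4, and Hist1h4b only with Hist1h4j, so the 11 H4 genes with a match used stems that no H1, H2A, H2B or H3 member had. The form of Hist1h3e was found in 6 members and that of Hist2h2ac in that gene alone. The annotated model ended within 200 bases of the stem-loop in 26 members (3 to 185 bases past it). In 18 others it ran on for 330 to 4884 bases. The models of the 23 members without a match had a median length of 411 bases, and the longest, that of Hist2h2be, had 2620.

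Several members also share a promoter element. The octamer ATTTGCAT, searched on both strands in the RefSeq promoter windows of GRCm38.p6 (250 bases before to 50 after each start), was found in 13 of the 62 members that have a window. All 13 were H2A or H2B genes (7 of 18 and 6 of 16), and the octamer occurred in 1.74% of all 32851 promoters. The octamer is the known binding element of POU2F1 (Oct-1) in H2B promoters. Many H2A and H2B genes sit head to head, and 3 such pairs read the same octamer from opposite strands. Of these windows 4 are shown, with the octamer or its reverse complement in capitals. Hist1h2bg and Hist1h2ae share the window chr13:23571335-23571354 on opposite strands, Hist1h2bb has chr13:23746638-23746657 and Hist1h2bm has chr13:21722013-21722032.
Hist1h2bg: tcccttATTTGCATagaacc
Hist1h2ae: ggttctATGCAAATaaggga
Hist1h2bb: tctcttATTTGCATaaagcc
Hist1h2bm: gtctctATTTGCATaacagc

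Other promoter letters were spread more widely. A TATAAA box was present in 56.5% of the members' windows against 13.6% of all promoters. CCAAT was present in every window of the H1, H2A, H2B and H3 members but in 3 of the 12 H4 windows, against 37.4% of all promoters.

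Core histone genes of a family are nearly identical in coding sequence, so reads can be hard to place. In the M21 transcripts, the median member had 62.9% of its 100-base windows unique to it. A window counted as shared if it matched a transcript of any other gene on either strand. Sharing therefore includes models that overlap the gene at the same place, also on the opposite strand, and not only related genes. The family medians were 99.6% for H1, 81.0% for H4, 63.6% for H2B, 50.3% for H3 and 30.1% for H2A. Hist2h2bb, Hist2h3b, Hist2h2aa1, Hist2h2aa2 and Hist2h3c1 had no unique window. Other histone genes share the windows of the last 4 of these, whereas those of Hist2h2bb are shared with Gm20628 and Gm42743, which overlap it, so all 5 values are uncertain. Within H1, Hist1h1c (94.9%), Hist1h1a, Hist1h1b (both 100%) and Hist1h1d (99.2%) were nearly or wholly unique. Hist1h2be shares 496 exon bases with Hist1h1e on the same strand, and Hist3h2a shares 708 with Trim17, so their values are uncertain too. How reads with several matches were counted is not given in the sources used here.

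Library totals ran from 14245178 to 36069968 counts. The members took 239169 counts in all, 0.0299% of the counts in fed muscle and 0.173% in fasting spleen at the extremes. A count of 3, the limit that a count of 0 allows, corresponded to 0.0832 to 0.211 CPM. Intervals and limits given here cover counting error only, since reads without molecular identifiers are not independent molecules. Transcripts without a poly(A) tail were present in these libraries, since Rn7sk, an RNA polymerase III transcript that has none, ran from 4830 CPM in fed muscle to 20603 CPM in fasting spleen. As bulk tissue was sequenced, fewer cells of a type and less RNA per cell cannot be told apart.

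Spleen held the most histone mRNA. Scaled by total counts, the summed level of the members was 1446 CPM in fed and 1726 CPM in fasting spleen. Lung followed with 769 and 568 CPM, then kidney with 578 and 527 CPM, white adipose with 478 and 498 CPM and brown adipose with 465 and 396 CPM. Heart (320 and 541 CPM), liver (310 and 321 CPM) and muscle (299 and 451 CPM) had the lowest fed values. Both spleen libraries lay above all 14 others, and fed lung lay above every library outside spleen. The order below spleen depends on the scaling. With TMM factors, chosen for levels after seeing the data, spleen had 944 and 1146 CPM, fasting muscle 861 CPM and fasting heart 617 CPM, while fed lung (510 CPM) lay below fed muscle (540 CPM) and fed kidney (539 CPM). Levels are given by total counts unless TMM is named, whereas the tests between tissues use TMM factors.

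**Figure D1:**
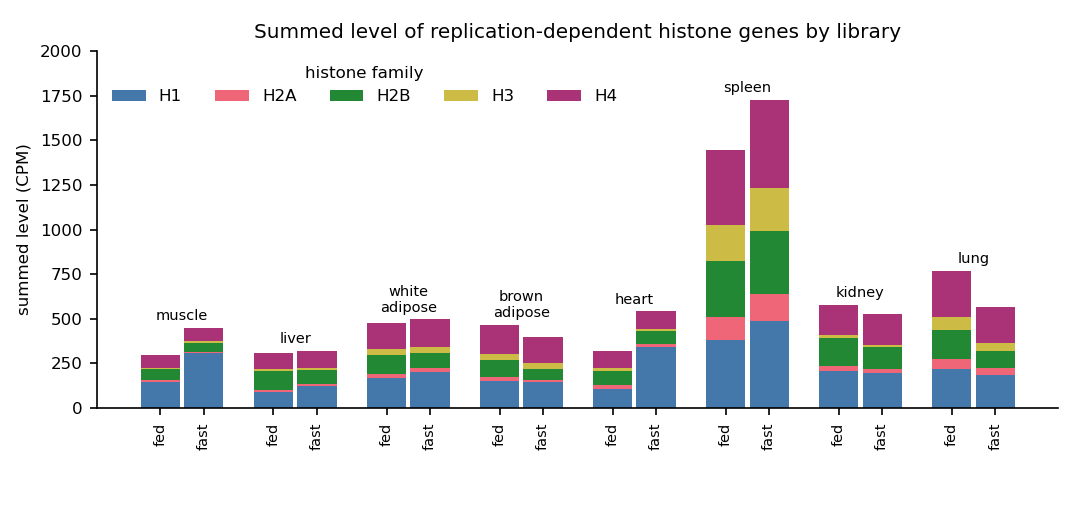
Summed level of the 67 histone genes in CPM (vertical axis) in each of the 16 libraries (horizontal axis, 1 bar per library), stacked by histone family. Spleen stands highest at 1446 and 1726 CPM, and the H1 share (bottom segment) is much taller in fasting than in fed muscle and heart.

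Of the 65 counted members, 58 had their highest tissue mean in spleen. For the 61 members whose median over the other 7 tissue means was above 0, the spleen mean was a median of 15.5 times that median. The ratio was 10 or more for 38 of them and under 3 for 10. With TMM factors 53 members had their highest mean in spleen, the median ratio was 9.08, and the ratio was 10 or more for 28 and under 3 for 17. In edgeR's quasi-likelihood test, in which each tissue is represented by its 2 libraries, 55 of the 60 members tested were higher in spleen than in the other tissues and 1 was lower, at an adjusted p under 0.05. Of all 23580 genes tested, 35.1% were higher and 29.6% lower (64.7% in all). The 6 members Hist3h2ba, Hist1h2bq, Hist1h2bp, Hist1h2an, Hist1h2ao and Hist1h2ap passed the filter on low counts only through the spleen libraries, so they had to differ. Of the 54 that passed it in the other 14 libraries alone, an alternative chosen after seeing the data, 49 were higher and 1 lower (32.1% and 31.2% of the 22365 genes that passed in the same way), with a median log2 difference of 3.14 against -0.15. Lung was next, with 37 members higher and 5 lower (30.6% and 23.6% of all genes, 54.2% in all) and a median of 0.93 against 0.04 over all genes. All 60 passed the filter without the lung libraries.

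In the other 6 tissues the calls were mostly lower, but each tissue was set against the mean of the other 7, which includes the high spleen values. In muscle 8 members were higher and 28 lower (25.9% and 24.9% of all genes, 50.9% in all), in brown adipose 4 and 23 (21.7% and 17.8%), in kidney 6 and 20 (27.7% and 19.3%), in heart 2 and 15 (22.7% and 19.8%), in liver 3 and 13 (27.0% and 24.8%, 51.8% in all), and in white adipose 1 and 8 (24.5% and 18.4%). Fitted without spleen, chosen after seeing the data, 54 members were tested, and the higher and lower calls were 9 and 16 in muscle (25.6% and 25.2% of 22365 genes), 5 and 12 in brown adipose (19.4% and 18%), 9 and 10 in kidney (27.2% and 18.2%), 2 and 5 in heart (21.3% and 18.4%), 3 and 6 in liver (27.9% and 24.8%) and 10 and 6 in white adipose (26.5% and 18.7%). Lung then had 40 and 2 (32.6% and 24.4%), with a median of 1.39. The counts also depend on scaling. With all tissues and total counts in place of TMM factors, the median of all genes moved from -0.13 to -0.87 in liver and from -0.22 to -1.23 in muscle, and each then had 1 member higher and 43 lower (13.7% and 49.4% of all genes in liver, 10.1% and 55.8% in muscle). Heart had 0 and 26 (18.8% and 26.7%), brown adipose 5 and 21 (23.2% and 16.2%), kidney 7 and 17 (30.3% and 16.6%) and lung 49 and 2 (53.8% and 9.33%). White adipose turned to 9 higher and none lower (44.8% and 5.83%). The spleen calls, 57 higher and 1 lower, stayed on the same side (51.7% and 17.3%).

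Compared per length, as RPKM (CPM divided by the length of the gene model in kilobases), the order of the genes in spleen differed from that elsewhere. Hist1h1c, a linker histone gene, ranged from 25.1 RPKM in fed liver through a median of 73.5 to 202 RPKM in fasting heart. Hist1h4h, an H4 gene, ranged from 28.3 RPKM in fasting muscle through 64.7 to 163 RPKM in fasting spleen. Hist1h4c, another H4 gene, ranged from 17.6 RPKM in fasting heart through 29.4 to 90.3 RPKM in fasting spleen. By TMM factors Hist1h4c was highest in fasting kidney (69.4 RPKM), above fasting spleen (60.0 RPKM). Core histone genes that were low elsewhere reached the same range in spleen. Hist1h2bb, an H2B gene, had a median of 6.24 RPKM over the 16 libraries and 119 RPKM in fasting spleen, and Hist1h2ak, an H2A gene, a median of 1.82 and 73.7 RPKM. Hist1h3e, an H3 gene, had a median of 10.2 RPKM and reached 82.4 RPKM in fasting spleen. With TMM factors Hist1h1c was highest in fasting muscle (343 RPKM), and fasting spleen had 78.8 RPKM of Hist1h2bb, 48.9 of Hist1h2ak and 54.7 of Hist1h3e.

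The gene model went with this difference. The 18 members whose model runs over 200 bases past the stem-loop took 62.4% of all member counts, against 18.2% for the 26 that end within 200 bases and 19.4% for the 23 without a match. Their median ratio of spleen to the other tissues was 4.44 (17 members), against 20.1 (24 members) and 26.6 (20 members). With TMM factors the ratios were 2.61, 12.1 and 16. These medians are a description over genes, and longer models also collect more reads. The class without a match holds models that may end before the stem-loop, so it is a class of annotation.

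**Figure D2:**
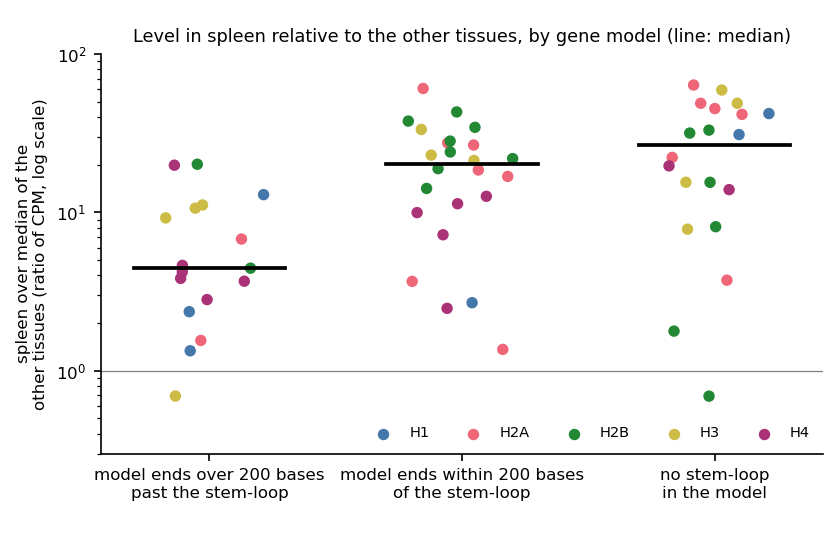
Ratio of the mean CPM in spleen to the median of the other 7 tissue means (vertical log axis), 1 point per histone gene, by class of gene model, with lines at the class medians. The members whose model runs over 200 bases past the stem-loop lie lower, at a median of 4.44, than those ending within 200 bases (20.1) or without a match (26.6).

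A few members broke the spleen pattern. Hist1h2bc, an H2B gene, was highest in kidney (129 CPM fed, 102 fasting) and liver (89.6 and 66.4), while spleen (29.3 and 28.5) was among the lowest. It was the member called lower in spleen (log2 difference -1.45, edgeR adjusted p = 9.86e-06), and it was higher in liver (1.59) and kidney (1.42). Hist1h4i, an H4 gene, had 10.6 and 10.2 CPM in muscle, 10.5 and 9.20 CPM in spleen, and 0.903 to 6.5 CPM elsewhere. Its values in muscle and spleen are near each other by total counts only, since with TMM factors they were 19.1 and 19.5 CPM in muscle and 6.86 and 6.11 CPM in spleen. The muscle difference of Hist1h4i was 2.90 (edgeR adjusted p = 1.52e-06) and its spleen difference 1.10 (adjusted p = 0.00334). Hist2h2be, an H2B gene, had 23.4 and 14.7 CPM in brown adipose, 15.0 and 9.37 in heart and 14.5 and 15.0 in spleen. Fasting brown adipose lay below fed heart and fasting spleen, but with TMM factors brown adipose (22.5 and 14.4 CPM) lay above both spleen values of Hist2h2be (9.45 and 9.95) and still overlapped heart (16.5 and 10.7). It was called higher in brown adipose (1.16, edgeR adjusted p = 0.000174), heart (0.66) and muscle (0.61), and lower in liver, white adipose and kidney. Its spleen contrast was 0.14 (adjusted p = 0.533). Hist3h2a, an H2A gene, lay between 1.44 CPM in fasting liver and 8.59 CPM in fasting spleen, with its heart (7.73 and 5.18), kidney (8.02 and 6.21), lung (6.89 and 6.29) and spleen (6.76 and 8.59) values overlapping. Muscle (5.94 and 3.59) lay below spleen by total counts, but with TMM factors muscle (10.7 and 6.85 CPM) lay above spleen (4.41 and 5.7 CPM) for Hist3h2a. It was called higher in muscle (1.02, edgeR adjusted p = 0.000963), heart (0.70) and kidney (0.59), and lower in liver and brown adipose. Its spleen contrast was 0.14 (adjusted p = 0.611). Hist2h3c2, an H3 gene, was at most 1.72 CPM, in fed white adipose, or with TMM factors 1.57 CPM, in fed muscle. Hist1h1c did not differ detectably between spleen and the rest (-0.14, adjusted p = 0.774), and was higher in muscle (1.70, adjusted p = 0.000469).

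The testis histone genes served as a low reference. Hist1h2aa had no count, Hist1h2ba had counts in 2 libraries (0.0333 CPM in fed lung and 0.0359 CPM in fasting spleen), and Hist1h1t did not exceed 0.222 CPM. Hist1h2ba was under the limit of 3 counts in every library, and Hist1h1t was above it in fed and fasting lung and in fasting spleen.

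In fasting against fed, the summed level rose in some tissues and fell in others, and the largest rises came with Hist1h1c. The log2 difference of the sum was 0.76 in heart (95% counting interval 0.71 to 0.81) and 0.59 in muscle (0.55 to 0.63), then 0.26 in spleen (0.24 to 0.28). Liver (0.05, 0.00 to 0.10) and white adipose (0.06, 0.02 to 0.09) were close to 0, and both depend on the scaling. With TMM factors liver went from 465 to 527 CPM, and white adipose fell from 370 to 355 CPM. Kidney was lower by -0.13 (-0.17 to -0.10), brown adipose by -0.23 (-0.28 to -0.18) and lung by -0.44 (-0.46 to -0.41). Without Hist1h1c, Hist1h4d and Hist1h2bc, the 3 members with the highest summed CPM, heart went from 172 to 146 CPM and muscle from 132 to 121 CPM, so both differences changed sign (-0.24 and -0.12). Spleen still went up from 1153 to 1352 CPM and lung down from 528 to 338 CPM.

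Hist1h1c encodes the linker histone H1.2, and its annotated model runs 840 bases past the stem-loop. It went from 74.5 CPM in fed to 315 CPM in fasting heart, a log2 fold change of 2.08 (counting interval 1.99 to 2.17). In muscle it went from 116 to 280 CPM (1.27, interval 1.21 to 1.33), in liver from 39.1 to 68.5 CPM (0.81, 0.69 to 0.93) and in spleen from 143 to 203 CPM (0.50, 0.44 to 0.57). Those were the tissues in which it was called. White adipose (113 and 146 CPM), lung (92.6 and 105 CPM) and kidney (133 and 139 CPM) had smaller differences in the same direction, and brown adipose went the other way (103 and 87.2 CPM). The fed and fasting values overlap across tissues, since by total counts fasting liver lay below all fed libraries other than fed liver. With TMM factors fasting liver (112 CPM) lay below fed muscle (209 CPM) and fed kidney (124 CPM) only, so the values still overlapped. A call within a tissue means a log2 fold change beyond 0.5 on the scale of log2(CPM + 0.01), together with a two-sided Fisher's exact test p under 0.01 between the 2 libraries. When pools were taken to vary with a CV of 0.4 in an edgeR exact test, the p for Hist1h1c in heart was 0.0164, and no member was called in any tissue. How many of all genes were called at that CV was not counted.

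The other linker histone genes were not called higher in any tissue. In spleen Hist1h1e (92.0 and 117 CPM) and Hist1h1d (65.0 and 79.2 CPM) had higher values in fasting. Elsewhere Hist1h1e was at 24.3 and 21.3 CPM in heart and 26.1 and 24.9 CPM in muscle. Hist1h1d was at 6.16 and 4.98 CPM in heart and 3.99 and 2.72 CPM in muscle, and was called lower in liver (6.25 to 4.09 CPM), brown adipose (8.07 to 4.84 CPM) and lung. Hist1h1a, chosen after its values were seen, fell below its fed value in 7 of the 8 tissues, from 2.13 to 0.801 CPM in liver and from 1.39 to 0.918 CPM in heart, with spleen the exception (41.9 and 48.8 CPM). Hist1h2bc was likewise lower in 7 of 8 tissues, with heart the exception (41.2 and 42.5 CPM), and was called in brown adipose alone (46.6 to 27.0 CPM, -0.79).

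**Figure D3:**
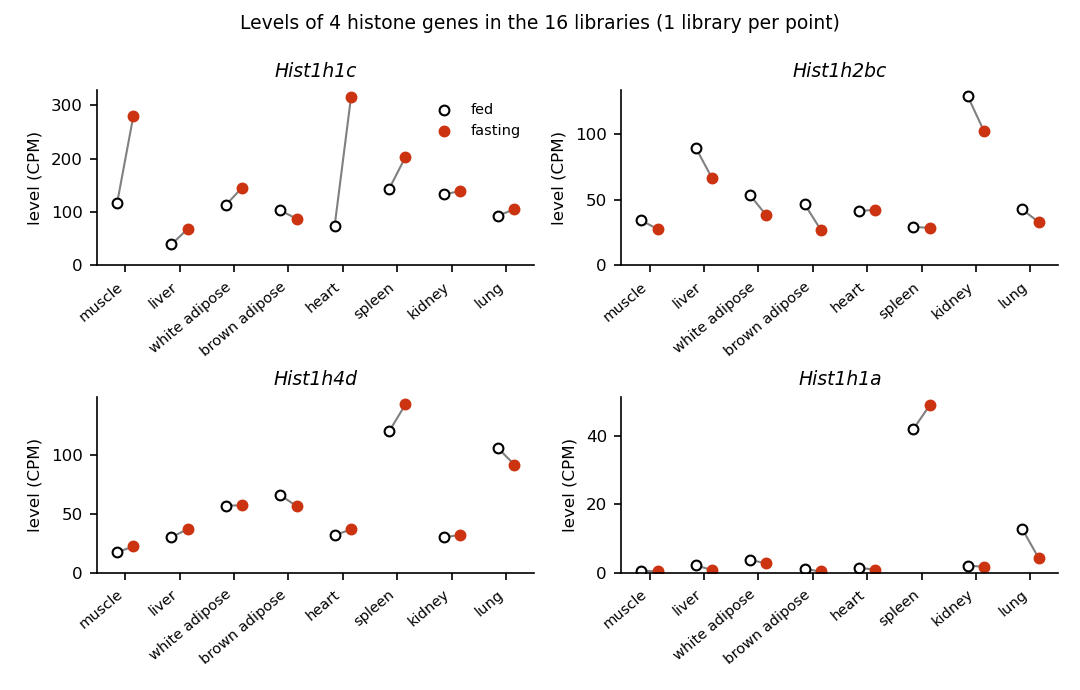
Level in CPM (vertical axes, from 0) of Hist1h1c, Hist1h2bc, Hist1h4d and Hist1h1a in the 16 libraries, with open points for fed and filled points for fasting, joined within each tissue. Hist1h1c is higher in fasting in 7 tissues, most in heart (74.5 to 315 CPM), whereas Hist1h2bc and Hist1h1a are lower in 7 tissues each.

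Lung had the broadest change of the histone genes. Of the 64 members with a count in lung, 39 were called lower in fasting and none higher, against 6.49% and 2.68% of all 31101 genes (9.18% in either direction). The median log2 fold change was -0.88, against -0.10 over all genes, and 59 of the 64 lay below 0. All families took part, with 3 of 6 H1 genes, 9 of 16 H2A, 13 of 18 H2B, 8 of 11 H3 and 6 of 13 H4 called. By family, the sum went from 71.3 to 40.4 CPM for H3 (-0.82), from 164 to 99.5 CPM for H2B (-0.72), from 57.4 to 35.2 CPM for H2A (-0.70), from 260 to 206 CPM for H4 (-0.34) and from 216 to 187 CPM for H1 (-0.21).

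Single members in lung changed by up to several-fold. Hist1h1a went from 12.8 to 4.32 CPM (-1.56, counting interval -1.84 to -1.29) and Hist1h1b from 12.7 to 4.44 CPM (-1.52, -1.80 to -1.25). Both were chosen after their values were seen, and both models are wholly unique in sequence. Hist1h1d went from 25.5 to 12.2 CPM (-1.06). Among the core histones, Hist1h2bj, an H2B gene, had the largest called fall, from 3.63 to 0.998 CPM (-1.85), and Hist1h3c, an H3 gene, went from 7.92 to 3.16 CPM (-1.32). Hist1h3f, another H3 gene, went from 16.7 to 9.95 CPM (-0.75). By contrast, Hist1h4d (106 and 91.9 CPM), Hist1h1e (72.4 and 60.9 CPM) and Hist1h1c were not called. Of the members with at least 50% unique windows, 21 of 38 were called, and of those under 50%, 18 of 26. By gene model the median was -0.38 for the 17 members that run over 200 bases past the stem-loop, -1.01 for the 25 that end within 200 bases and -1.03 for the 22 without a match.

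Spleen moved the other way by a smaller amount. Of 64 members, 57 lay above 0, with a median of 0.21 against -0.01 over all genes. Hist1h2ae (4.37 to 6.43 CPM, 0.56) and Hist1h1c were called higher and no member lower, against 2.31% of all 29373 genes higher and 1.62% lower. All 5 family sums were higher in fasting spleen, by 0.15 (H2B) to 0.37 (H1).

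**Figure D4:**
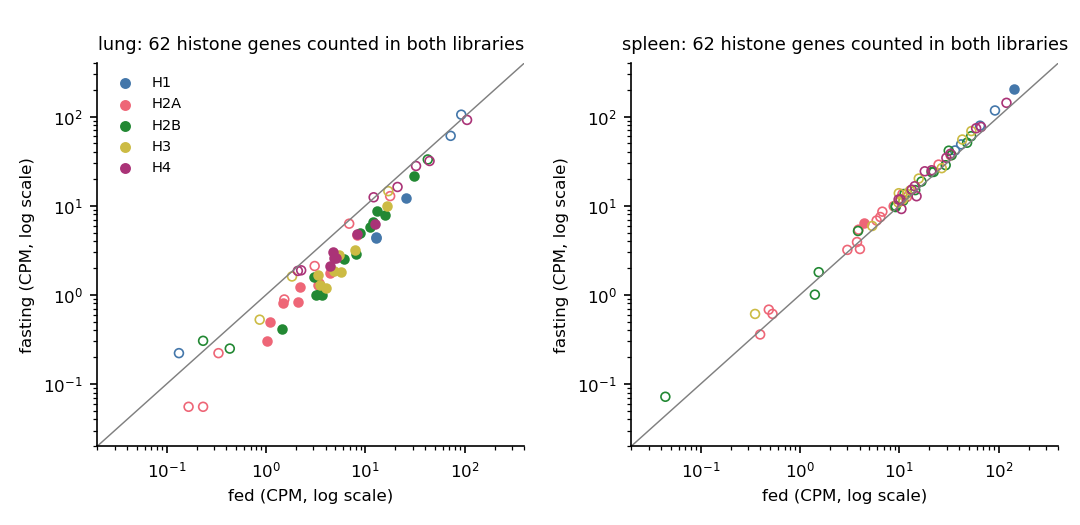
CPM in fasting (vertical log axes) against CPM in fed (horizontal log axes) for the 62 histone genes counted in both libraries of lung (left) and of spleen (right), coloured by family, filled where called, with the line of equal level. Most points of lung lie below the line, and those of spleen mostly lie just above it.

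Marker genes of other cells moved with both results. In lung, 10 of 10 B cell markers were called lower in fasting (summed level 543 to 277 CPM) and 10 of 10 T cell markers (136 to 39.0 CPM), with none of either list at 0. Of 7 cardiomyocyte markers 6 were called lower in lung (1200 to 636 CPM). Of 8 adipocyte markers in lung 5 were called higher and 1 lower (179 to 302 CPM). Of 8 hepatocyte markers there, 4 were lower and 2 higher. Among all genes in lung, 6.49% were lower and 2.68% higher. In spleen, 16 of 17 erythroblast markers were called higher (4010 to 9642 CPM), among them the globin genes Hbb-bs (2075 to 4947 CPM) and Hba-a1 (709 to 1680.4 CPM), with none at 0, while the B cell markers went from 11014 to 10765 CPM. Their part in the histone results was not tested.

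The remaining tissues had few calls. In brown adipose 1 of 57 members was called higher and 7 lower (5.39% and 7.58% of all 25808 genes, 13.0% in either direction), with a median of -0.56 against -0.04. The 7 were Hist1h2bc, Hist2h2be (23.4 to 14.7 CPM), Hist2h2ac (12.3 to 7.93 CPM), Hist1h2be, Hist1h1d, Hist1h3d and Hist1h2bh, which fell most (2.11 to 0.562 CPM, 35 and 8 counts), and Hist1h4i was higher (0.903 to 2.11 CPM, 15 and 30 counts). Between the same libraries 8 of 8 skeletal muscle fibre markers were called lower (2589 to 1184 CPM), none at 0, and their part in these values was not tested. In liver 1 member was higher and 6 lower of 59 (4.46% and 9.52% of all genes). The largest fall at 1 CPM or more was Hist1h4m (2.04 to 0.681 CPM, 47 and 17 counts), and 4 of the 6 were H4 genes. In kidney none of 59 was higher and 4 lower (2.77% and 3.93%, 6.69% in either direction), led by Hist1h2bj (1.29 to 0.388 CPM, 29 and 10 counts). Of 8 hepatocyte markers 5 were called lower and 1 higher in kidney, and their part in these values was not tested.

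In white adipose 5 of 62 members were higher and 2 lower (13.2% and 5.84% of all genes, 19.1% in either direction), with a median of -0.04 against 0.12. Hist1h2ac had the largest rise (0.816 to 1.82 CPM, 19 and 50 counts), Hist1h4m went from 1.5 to 2.99 CPM, and Hist2h3c2 fell (1.72 to 0.510 CPM, 40 and 14 counts). Beside these, 2 of 8 kidney tubule markers were called higher and none lower between the white adipose libraries (median log2 fold change 0.40). Their sum went from 69.9 to 750 CPM. Of 10 B cell markers 2 were called lower and none higher (median -0.32), and their sum went from 354 to 89.4 CPM. Both sums moved further than the medians, and the part of these markers in the histone values was not tested. In heart 1 of 62 was higher and 3 lower (4.33% and 5.80%, 10.1% in either direction), Hist1h1c and then Hist2h2be (15.0 to 9.37 CPM), Hist3h2a (7.73 to 5.18 CPM) and Hist1h2af (16 and 2 counts). Between the heart libraries 8 of 8 hepatocyte markers were called higher (30.6 to 100.1 CPM), none at 0. Of 8 skeletal muscle fibre markers 5 were called higher and none lower in heart. The part of both lists in these values was not tested. In muscle 1 of 59 was higher and 1 lower (4.42% and 9.39%, 13.8% in either direction), Hist1h1c and Hist3h2a (5.94 to 3.59 CPM). Between the muscle libraries 5 of 8 adipocyte markers and 3 of 6 cardiomyocyte markers were called lower and none higher. The part of these markers in the histone values was not tested. As shares of the members tested, 10.2% were lower in liver, 6.78% in kidney, 4.84% in heart and 1.69% in muscle, so that liver, heart and muscle were near or below all genes. Scaled by TMM factors, all fold changes moved by 0.131 in liver and by -0.119 in white adipose. Liver then had 4 calls in place of 7, and the share of all genes called at this scaling was not counted.

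**Figure D5:**
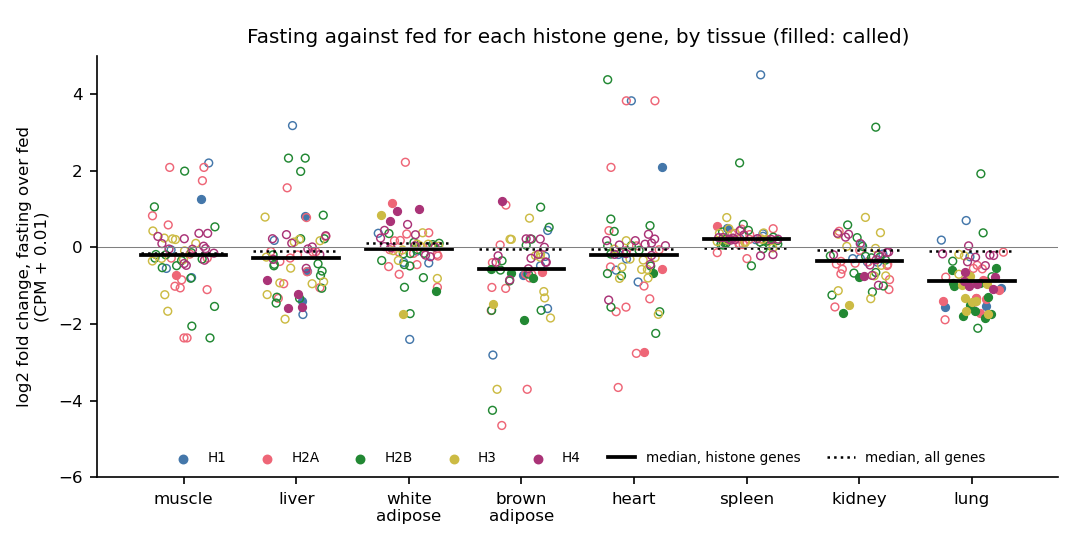
Log2 fold change of fasting over fed, from CPM + 0.01 (vertical axis), for each histone gene in each tissue (horizontal axis), coloured by family and filled where called, with solid lines at the median of the histone genes and dotted lines at the median of all genes. The histone median is -0.88 in lung and 0.21 in spleen, and points far from 0 that are not filled rest on few counts.

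Over the 8 tissues, 16 of the 65 counted members were called in no tissue, 32 in 1 and 17 in 2 or more (24.6%, 49.2% and 26.2%, against 63.2%, 20.2% and 16.6% of all 37084 genes with a count). Lung alone gave 39 of these calls. Hist1h4a, Hist1h4i and Hist1h4m, all H4 genes, were called in both directions. Hist1h4i was lower in liver (2.26 to 0.961 CPM) and kidney (6.5 to 3.88 CPM) but higher in brown adipose, and Hist1h4m and Hist1h4a were lower in liver and lung but higher in white adipose. Hist1h4m had 11.9% unique windows, so its counts in particular may be shared with other copies.

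Taking the 8 tissues as 8 blocks, edgeR's quasi-likelihood test of fasting against fed called none of the 60 members tested in either direction. Of all 23580 genes, 1.03% were called higher and 0.840% lower (1.87% in all). The 8 tissues of a treatment come from the same mice. The blocks are therefore not independent, and the p-values and SEs do not measure variation between mice. At an unadjusted p under 0.05 there were 15 members (25.0%, against 18.6% of all genes), and 48 of the 60 had a log2 fold change below 0 (80.0% against 51.5%), with a median of -0.24 against -0.01 over all genes. The lowest p belonged to Hist1h1a (-0.69 ± 0.21 SE, adjusted p = 0.117), Hist1h2bc (-0.30 ± 0.09, adjusted p = 0.123) and Hist1h1c (0.66 ± 0.23, adjusted p = 0.156). Hist1h1c was higher in 7 of 8 tissues. DESeq2 called Hist1h2bc (-0.31, adjusted p = 0.0406) and Hist1h1a (-0.71, adjusted p = 0.0470) lower and none higher, against 2.66% and 2.28% of all genes fitted (4.94% in all). Without the spleen libraries edgeR called 1 member lower, Hist1h2bj (-1.21, adjusted p = 0.0458).

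Whether the change in a tissue differed from that in the other 7 was tested by an interaction term in edgeR, over 61 members with 6 residual degrees of freedom. No member was called in any tissue, among 24930 genes of which 0.00% were called in lung, muscle, heart and kidney, 0.197% in liver, 4.18% in white adipose, 0.00802% in brown adipose and 0.0321% in spleen. In lung, 57 of 61 members lay below 0 with a median of -0.72, and 7 had an unadjusted p under 0.05 (11.5%, against 1.78% of all genes). In spleen, 59 lay above 0 with a median of 0.55, and 3 had an unadjusted p under 0.05 (4.92% against 1.6%). Such p values numbered 2 in muscle, 1 each in liver, white adipose, brown adipose and heart, and none in kidney (1.94% to 12.9% of all genes in these tissues). Hist1h1c in heart was at 1.68 (unadjusted p = 0.00567, edgeR adjusted p = 1). By this test the lung and spleen differences of the members were not shown to differ from those of the other tissues.

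Genes that act on histone mRNA or accompany histone synthesis were read from lists. Of 20 genes of histone mRNA 3′ end formation and turnover, across tissues only Cstf2, a cleavage stimulation factor subunit, was called (lower, -0.33, edgeR adjusted p = 0.0373). Slbp, chosen after its values were seen, was called lower in muscle (6.11 to 3.94 CPM) and heart (16.1 to 9.70 CPM) and was highest in spleen (63.3 and 55.8 CPM). Sympk, the scaffold symplekin, and Upf1, a helicase needed for histone mRNA decay, were called in no tissue. Of the 20, 5 were lower in liver (9.52% of all genes), 3 in heart (5.80%), 3 in muscle (9.39%) and 1 in kidney (3.93%), and none was called higher in any tissue or lower in lung, spleen or adipose tissue. Against the other tissues, 13 of the 20 were higher in spleen and 3 lower (35.1% and 29.6% of all genes).

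Of 45 genes of DNA replication and S phase, 37 were higher in spleen and 1 lower (35.1% and 29.6% of all genes), and 21 were lower in fasting lung with none higher (6.49% and 2.68%). Across tissues only Mcm5, a subunit of the replicative helicase, was called (lower, -0.64, edgeR adjusted p = 0.0366). In lung it went from 14.8 to 6.90 CPM. Rfc1, a subunit of the clamp loader, and Rpa1, a subunit of the single-strand binding protein, had the highest summed CPM of the list and were called in no tissue. In liver 17 of the 45 were lower (summed level 326 to 227 CPM, 9.52% of all genes lower), beside 6 of 59 histone members. In heart 8 were lower and 2 higher (5.80% and 4.33% of all genes), in brown adipose 8 and 1 (7.58% and 5.39%), in white adipose 7 and 1 (5.84% and 13.2%), in muscle 3 and 2 (9.39% and 4.42%) and in kidney 1 and 1 (3.93% and 2.77%). In spleen none of the 45 was called, and their sum went from 1482 to 1332 CPM while that of the histone genes went up. Of 23 mitosis genes, all 23 were higher in spleen than in other tissues, 17 were lower in fasting lung (217 to 121 CPM), among them Mki67 (57.7 to 30.7 CPM) and Top2a (35.2 to 16.5 CPM), and none was called in fasting spleen. Elsewhere 7 of the 23 were lower in fasting heart (89.5 to 46.9 CPM, 5.80% of all genes), 6 in kidney (50.3 to 33.7 CPM, 3.93%), 5 in brown adipose (32.7 to 21.2 CPM, 7.58%), 4 in liver (23.6 to 14.1 CPM, 9.52%) and 1 in muscle (19.4 to 11.3 CPM, 9.39%), and 1 was higher in liver and 1 in white adipose.

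Of 12 replacement histone genes, 1 was called lower in lung and none higher, close to the 6.49% and 2.68% of all genes. In liver 3 of the 12 were lower (9.52%), in heart 2 (5.80%), and 1 each in muscle and brown adipose, while 2 were higher in white adipose and 1 in muscle, and across tissues none was called (median -0.11, and -0.24 for the members). H3f3a, which encodes H3.3, was at 187 and 160 CPM in lung and 340 and 338 CPM in spleen. H3f3b, which encodes the same protein, was at 344 and 314 CPM in lung and was called higher in muscle (47.0 to 71.9 CPM) and white adipose (134 to 190 CPM). Of 19 histone chaperones, 2 were lower in lung and none higher (6.49% and 2.68% of all genes), 3 each were lower in liver and brown adipose (9.52% and 7.58%), 2 in heart and 1 in muscle, 2 were higher in muscle and 1 each in white and brown adipose, and none was called across tissues. Atrx, a chromatin remodeller that deposits H3.3, was at 405 and 433 CPM in lung, and Rbbp4, a histone-binding subunit of CAF-1, at 130 and 125 CPM. A further list was drawn up as RNAs without a poly(A) tail, among them Rn7sk and Malat1. It also named Neat1 and Snhg1, which have polyadenylated forms, so its counts may not describe RNAs without a tail alone. Of its counted RNAs 1 of 11 was higher and 2 lower in lung (2.68% and 6.49% of all genes), with a median of -0.05. In spleen 2 of the 11 were higher and none lower (2.31% and 1.62%), with a median of 0.01. Higher calls were 3 each in muscle (4.42%) and brown adipose (5.39%), 2 each in kidney and white adipose and 1 each in liver and heart, lower calls were 1 each in liver, heart, white adipose and brown adipose, and across tissues none of 11 was called.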

How the data were processed

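RNA from 8 tissues of fed and fasting mice was sequenced as 1 pooled library of 3 mice per tissue and treatment. The deposited values are raw counts of reads per gene. Per the study's methods the authors extracted RNA with Trizol and MagMAX, prepared libraries with a strand-specific Illumina TruSeq kit, trimmed with fastp, aligned with HISAT2 to GRCm38 and counted with featureCounts on GENCODE vM24. Whether poly(A) RNA was selected or rRNA depleted, the strand setting of the counting and the treatment of multi-mapping reads are not given in the sources used here. The counts of the 37 mitochondrial genes are all 0.

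Symbols, transcripts and overlaps came from GENCODE M21, which matched 55144 of 55385 identifiers, and promoters from RefSeq GRCm38.p6. CPM used total counts, and levels were also computed with TMM factors. Within a tissue the counts of both libraries were compared by a two-sided Fisher's exact test (p under 0.01) with a log2 fold change beyond 0.5 from CPM + 0.01, after the study's methods. Across tissues and between tissues, edgeR 4.0.16 quasi-likelihood tests with TMM factors, filterByExpr and Benjamini-Hochberg adjustment were fitted to all 16 libraries with tissue as a block, and DESeq2 1.42.0 was an alternative. Fits ran in R 4.3.3, other steps in Python 3.11.15 with scipy 1.17.1, and the tests were first run on simulated data. Intervals are exact 95% intervals for counting error. With 1 pool per tissue and treatment, p-values measure the spread between these libraries, which may be technical in part.

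The text names the 12 members with the highest summed CPM, the 3 highest of each family, members called across tissues, the largest called rise and fall of each tissue at 1 CPM or more, and the testis genes, and from each pathway list the 2 genes with the highest summed CPM and those called across tissues. Other names were chosen after their values were seen. The members and lists were chosen with earlier results of these data known.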

Additional observations from a re-analysis of the deposited data

How the results depend on the processing

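With 1 library per tissue and treatment, the calls within a tissue rest on the spread that is assumed. When pools were taken to vary with a CV of 0.4 in an edgeR exact test, the calls went to 0 in every tissue. They had been 2 in muscle, 7 in liver, 7 in white adipose, 8 in brown adipose, 4 in heart, 2 in spleen, 4 in kidney and 39 in lung. The CV of 0.4 was assumed, and the common CV that edgeR fitted over all libraries was 0.219. With a log2 fold change beyond 1 the calls were 1 in muscle, 4 in liver, 3 in white adipose, 3 in brown adipose, 2 in heart, 0 in spleen, 2 in kidney and 23 in lung. A pseudocount of 1 CPM left 1 call in spleen, and TMM factors and DESeq2 size factors left 4 each in liver. In lung the calls stayed at 36 under both scalings and 37 with the pseudocount of 1 CPM. For all these alternatives within a tissue the share of all genes called was not counted. The changes in the counts therefore cannot be read as a trait of the members. Across tissues, DESeq2 called 2 members where edgeR called 0, omitting each tissue in turn gave from 0 to 1 (Hist1h2bj without spleen, -1.21, edgeR adjusted p = 0.0458), and the fit without tissue as a block, so with no pairing of fed and fasting libraries, gave 0. With total counts in place of TMM, 44 members differed in liver against the other tissues in place of 16, and 26 in heart in place of 17. Fitted without spleen, chosen after seeing the data, 9 members differed in liver, 16 in white adipose in place of 9, 17 in brown adipose in place of 27 and 7 in heart.

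The log2 difference of the summed level under TMM factors was 0.67 in muscle, 0.18 in liver, 0.81 in heart, 0.28 in spleen, -0.082 in kidney and -0.36 in lung, and in white adipose it changed sign to -0.062. DESeq2 size factors gave 0.67, 0.18, 0.81, -0.076 and -0.36 in muscle, liver, heart, kidney and lung, and -0.059 in white adipose. Without the 3 members with the highest summed CPM it changed sign in muscle (-0.12), liver (-0.021) and heart (-0.24), and was 0.011 in white adipose, -0.15 in brown adipose, 0.23 in spleen, -0.17 in kidney and -0.65 in lung. The cause of these shifts was not tested. Depth limits members with few counts, since the limit of 3 counts was 0.0832 to 0.211 CPM.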
